A study of Rattus norvegicus with 4 samples.

Results

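The phosphofructokinase (PFK) genes Pfkl, Pfkm and Pfkp and the PFKFB genes Pfkfb1, Pfkfb2, Pfkfb3 and Pfkfb4 were taken from the transcriptome of rat INS-1 832/3 cells by gene symbol. They are 7 of the 23360 genes in the files and have 19 of the 31201 listed transcripts. The 2 families were taken whole, but they were proposed with results of the same comparison known, above all the differences of Pfkfb3 and Pfkp, so the differences of the 7 genes between culture forms are given here as a description and support nothing by themselves. INS-1 832/3 is an insulin-secreting rat insulinoma line that carries a human insulin gene, and all 4 samples are cultures of this line. In 2 cultures the cells grew as a standard 2D monolayer without hydrogel, and in the other 2 they were bioprinted into GelXA LAMININK 411, a gelatin methacrylate hydrogel with laminin, and grown in 3D. Polyadenylated RNA was taken from all cultures after 5 days, at passage 3, in the same medium. The groups therefore differ in printing, light curing, matrix and cell arrangement at the same time, and these cannot be told apart. The values are TPM, a unit of transcript abundance that is corrected for transcript length and sums to 1000000 in each sample, so levels of different genes can be compared. TPM do not carry read numbers, and counting errors are therefore not given.

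Phosphofructokinase phosphorylates fructose 6-phosphate and is the first committed step of glycolysis. It works as a tetramer of the liver (Pfkl), muscle (Pfkm) and platelet (Pfkp) subunits, and the subunits differ in how they respond to ATP, citrate and activators. The PFKFB genes encode bifunctional enzymes that make and break fructose 2,6-bisphosphate, the strongest activator of phosphofructokinase: Pfkfb1 is the isoform of liver and muscle, Pfkfb2 that of heart and of pancreatic beta cells, Pfkfb3 is an inducible form with a strong bias to the kinase reaction, and Pfkfb4 was first found in testis. Beta cells use glycolytic flux to sense glucose, and several genes of both families are known targets of hypoxia-inducible factors.

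The windows around the start sites of 4 members are shown to set members with a large, a moderate and no higher level in 3D culture beside each other. They were read from RefSeq promoter sequences of the GRCr8 build, which hold 250 bases before and 50 after 1 start site a gene and were found for 7 of 7 members. The start sites of the transcripts quantified in the files were not compared with these windows. ACGTG and GCGTG, the core letters of sites for hypoxia-inducible factors, were searched on both strands and are in capitals; the E-box CACGTG, which contains ACGTG on both strands, was the third motif searched.
Pfkfb3, chr17:71944683-71944982, plus strand: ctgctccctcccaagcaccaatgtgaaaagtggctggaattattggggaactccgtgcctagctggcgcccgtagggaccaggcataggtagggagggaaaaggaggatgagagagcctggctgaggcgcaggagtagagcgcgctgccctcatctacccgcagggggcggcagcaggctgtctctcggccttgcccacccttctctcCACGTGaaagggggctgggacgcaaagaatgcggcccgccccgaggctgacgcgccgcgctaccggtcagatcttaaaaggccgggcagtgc
Pfkp, chr17:68639563-68639862, plus strand: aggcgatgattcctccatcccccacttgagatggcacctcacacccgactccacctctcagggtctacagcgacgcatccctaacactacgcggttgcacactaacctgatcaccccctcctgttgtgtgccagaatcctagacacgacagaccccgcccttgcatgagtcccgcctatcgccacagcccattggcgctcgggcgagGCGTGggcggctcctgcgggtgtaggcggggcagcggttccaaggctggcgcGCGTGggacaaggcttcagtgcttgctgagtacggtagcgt
Pfkm, chr7:131113849-131114148, plus strand: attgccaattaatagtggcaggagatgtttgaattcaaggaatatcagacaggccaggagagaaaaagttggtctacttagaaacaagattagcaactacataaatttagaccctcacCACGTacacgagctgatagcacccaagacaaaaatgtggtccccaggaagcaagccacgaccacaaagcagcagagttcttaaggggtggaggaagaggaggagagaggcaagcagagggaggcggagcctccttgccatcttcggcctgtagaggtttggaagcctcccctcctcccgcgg
Pfkfb4, chr8:118525916-118526215, plus strand: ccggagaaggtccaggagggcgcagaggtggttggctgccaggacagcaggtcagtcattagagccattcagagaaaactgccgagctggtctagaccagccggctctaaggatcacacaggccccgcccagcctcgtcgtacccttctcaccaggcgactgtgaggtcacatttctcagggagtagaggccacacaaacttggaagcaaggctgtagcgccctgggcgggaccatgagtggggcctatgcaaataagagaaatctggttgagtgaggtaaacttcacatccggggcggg

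ACGTG or GCGTG was found in the windows of 4 of the 7 members, Pfkfb3, Pfkp, Pfkl and Pfkm, and in 41.6% of 33469 windows of the same length in the RefSeq table. Pfkfb3 holds a CACGTG that ends 36 bases before its start site. Such a CACGTG was present in 6.42% of all windows and in 1 of the 7 members. Pfkp holds GCGTG once before and once after its start site, with 38 bases between the first and the start, and Pfkl holds it 2 times before its start. Pfkm, which was not higher in 3D culture, has 1 ACGTG on the opposite strand, printed as CACGT. Pfkfb2 and Pfkfb4, which were higher, and Pfkfb1, which was lower and not tested, have neither motif in these windows. A match is a run of letters and does not show that a factor binds there.

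In monolayer culture, Pfkm had the highest TPM of the 7 genes, followed by Pfkl, Pfkp, Pfkfb2, Pfkfb3, Pfkfb4 and Pfkfb1. The ranges of neighbours in this order were apart except for those of Pfkp, from 36.4 to 42.2 TPM, and Pfkfb2, from 30.9 to 37.7 TPM. In 3D culture Pfkm was still highest, but Pfkfb3 moved above Pfkfb2, and the range of Pfkp, from 78.8 to 92.7 TPM, overlapped those of Pfkl and of Pfkfb3, which were apart from each other. Pfkfb4 and Pfkfb1 were the lowest of the 7 in both groups. The plot of each culture's level shows that 5 genes had both 3D cultures above both monolayer cultures and 2 had them below.

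**Figure D1:**
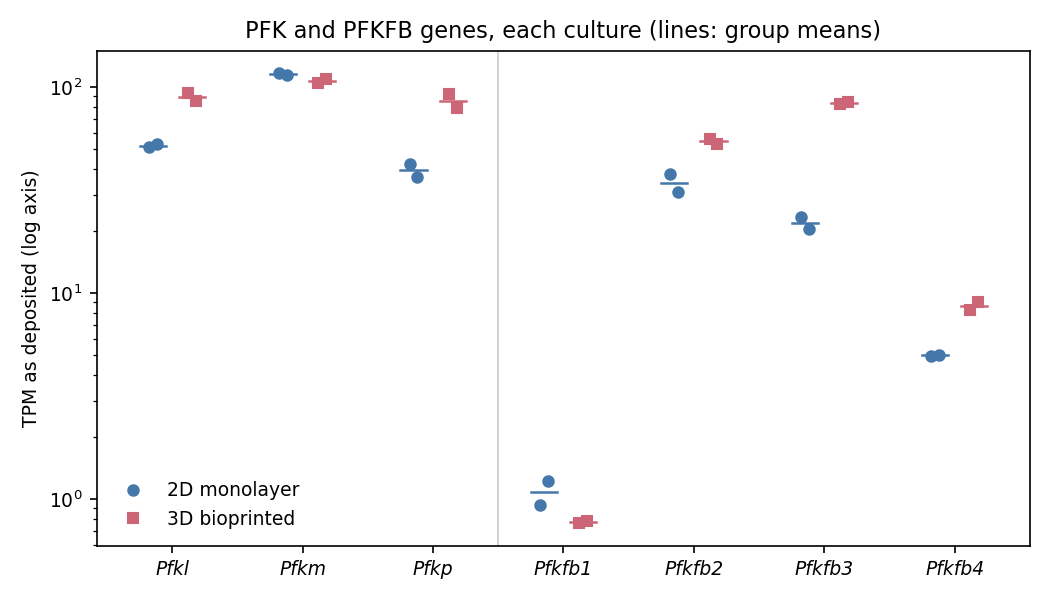
TPM as deposited (log axis) of the 3 phosphofructokinase and 4 PFKFB genes, with 1 point for each culture (circles for 2D monolayer, squares for 3D bioprinted) and a line at each group mean of 2 cultures. Pfkl, Pfkp, Pfkfb2, Pfkfb3 and Pfkfb4 lie higher in 3D culture, with the widest gap at Pfkfb3, while Pfkm and Pfkfb1 lie lower.

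Each gene's log2 fold change, on the log2(TPM + 1) scale, comes from one fit over all genes whose TPM averaged 1 or more, after scaling between samples. The added 1 lowers the fold change of genes with low TPM. Of the 6 members that passed this filter, 5 had an adjusted p below 0.05 in limma, and all 5 were higher in 3D culture. In the same fit 38.0% of the 11960 genes tested were called, 18.5% higher with the hydrogel and 19.5% lower, and since the members were chosen from this contrast, nothing is read from their count. Among all genes tested, both 3D cultures lay above both monolayer cultures in 41.1% and below them in 33.2%. The methods of the study call the sequenced cultures biological replicates. With 2 cultures against 2, the smallest p that an exact two-sided permutation test of 1 gene allows is 0.33. With 3D replicate 1 left out, the log2 fold changes of Pfkfb3 and Pfkp were 1.85 and 0.94. The families were proposed above all on the differences of these genes.

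Among the phosphofructokinase genes, Pfkp differed most. This gene of the platelet subunit had 42.2 and 36.4 TPM in the monolayers against 92.7 and 78.8 TPM in the printed cultures, a ratio of group means of 2.18. Its lowest 3D value was well above its highest monolayer value, although the cultures within each group also differed more than those of the other phosphofructokinase genes. Its log2 fold change was 1.06 with a standard error of 0.10, and 1.54% of the genes tested had a higher one. Over the 4 ways of leaving out 1 culture, the log2 fold change of Pfkp ran from 0.94 to 1.19.

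Pfkl, the liver subunit, had 50.9 and 52.8 TPM in the monolayers against 93.1 and 85.1 TPM in the printed cultures. The groups did not overlap, and the ratio of means was 1.72, or 0.73 as log2 fold change (standard error 0.077). With 3D replicate 1 left out it was 0.65 and its call was lost.

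Pfkm, the muscle subunit and the most abundant of the family in every culture, went the other way. It had 116 and 114 TPM in the monolayers against 104 and 109 TPM in the printed cultures, so that both 3D cultures lay slightly below both monolayer cultures. The ratio of means was 0.922 and the log2 fold change -0.16 (standard error 0.054), and Pfkm was the member that was tested and not called. Its log2 fold change stayed between -0.18 and -0.12 across the left-out cultures and the other settings.

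Summed over the 3 subunit genes, PFK transcripts stood at 206 ± 4.501 TPM (SD, n = 2) in the monolayers and 281 ± 12.0 TPM (SD, n = 2) with the hydrogel, a ratio of 1.36. The mix of subunits shifted with this sum. Pfkm made up 55.8% ± 0.396 (SD, n = 2) of the family in the monolayers against 37.8% ± 2.82 (SD, n = 2) in the printed cultures. Pfkp went from 19.0% ± 1.57 to 30.46% ± 2.18 and Pfkl from 25.15% ± 1.17 to 31.7% ± 0.646 (SD, n = 2 each). The 3 subunits thus had nearly even shares in 3D culture, between 28.9% and 39.8% in single cultures. Per culture, Pfkm had 2.76 and 3.13 times the TPM of Pfkp in monolayer and 1.12 and 1.38 times in 3D culture.

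**Figure D2:**
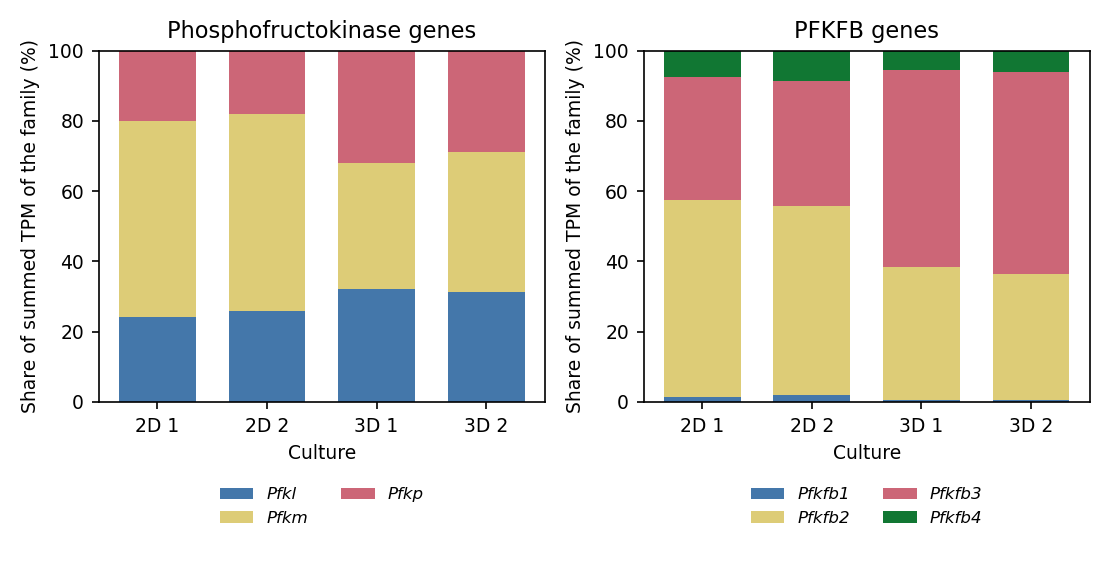
Share of each gene in the summed TPM of its family (%), 1 bar for each culture, for the phosphofructokinase genes (left) and the PFKFB genes (right). Pfkm goes from 55.8% to 37.8% of its family on average, and Pfkfb3 goes from 35.25% to 56.8% of the PFKFB family, in the place Pfkfb2 held in monolayer.

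Of the PFKFB genes, Pfkfb3 had the widest difference between culture forms. It had 23.5 and 20.5 TPM in the monolayers against 82.6 and 84.8 TPM in the printed cultures, and the cultures within a group lay close together. The ratio of group means was 3.81 and the log2 fold change 1.84 with a standard error of 0.064, which placed Pfkfb3 at rank 30 among the 11960 genes tested. Leaving out single cultures kept this value between 1.78 and 1.90.

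Pfkfb2, the isoform known from beta cells, had 37.7 and 30.9 TPM in the monolayers against 55.9 and 52.8 TPM in the printed cultures. Both 3D cultures lay above both monolayer cultures, with a ratio of means of 1.58, or 0.61 as log2 fold change (standard error 0.088). Its call was lost with 3D replicate 1 left out, where the log2 fold change was 0.56.

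Pfkfb4 was about an order of magnitude less abundant than Pfkfb3 in 3D culture. It had 4.96 and 5.01 TPM in the monolayers against 8.24 and 8.99 TPM in the printed cultures, a ratio of 1.73, or 0.65 as log2 fold change (standard error 0.084). The 2 groups did not overlap, and the call was lost with either 3D culture left out, at log2 fold changes of 0.69 and 0.60.

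Pfkfb1, the liver and muscle isoform, had the lowest level of the 7 genes. It had 0.930 and 1.22 TPM in the monolayers against 0.763 and 0.783 TPM in the printed cultures, and its mean of 0.925 TPM left it below the filter, so it was not tested.

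Together the 4 PFKFB genes had 67.1 and 57.6 TPM in monolayer and 147 TPM in both 3D cultures, a ratio of 2.365. In monolayer Pfkfb2 was the leading isoform with 54.95% ± 1.83 (SD, n = 2) of the family and Pfkfb3 had 35.25% ± 0.378 (SD, n = 2). In 3D culture the order was turned, with Pfkfb3 at 56.8% ± 1.099 (SD, n = 2) and Pfkfb2 at 36.85% ± 1.47 (SD, n = 2). The share of Pfkfb2 was lower although its TPM was higher in 3D culture. Pfkfb4 had 8.04% ± 0.928 in monolayer and 5.84% ± 0.360 in 3D culture, and Pfkfb1 had 1.76% ± 0.522 and 0.524% ± 0.00969 (SD, n = 2 each). In single cultures, the ratio of Pfkfb3 to Pfkfb2 was 0.622 and 0.662 in monolayer and 1.48 and 1.61 in 3D culture. These shares follow from the differences above and were not tested. In bulk RNA, more transcripts per cell and a larger part of cells that carry them cannot be told apart.

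The mix of transcripts within a gene was not used to choose the members and was tested over all genes with at least 2 transcripts of a mean TPM of at least 1. Of the members' 19 transcripts, 7 entered this test, from Pfkm, Pfkfb2 and Pfkfb3, while Pfkl and Pfkp are each listed with 1 transcript. None of the 7 passed an adjusted p of 0.05 in limma, and 2 of the 7 had an unadjusted p below 0.05. These 2 are the only transcripts of Pfkm, so that their values mirror each other and are 1 comparison. Over all 5494 transcripts tested, 0.146% were called and 14.4% had an unadjusted p below 0.05. Transcripts of a gene share exons, and the quantification divides reads of single-end libraries among them by estimation.

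Both main transcripts of Pfkfb3 were higher in 3D culture by a like factor. ENSRNOT00000051067.4 carried most of the gene and had 18.5 and 17.1 TPM in the monolayers against 64.5 and 66.9 TPM in the printed cultures. ENSRNOT00000025731.5 had 4.96 and 3.39 TPM in the monolayers against 17.9 and 17.3 TPM in the printed cultures. The ratios of group means were 3.69 and 4.21. The first made up 81.15% ± 3.20 (SD, n = 2) of Pfkfb3 TPM in the monolayers and 78.5% ± 0.530 (SD, n = 2) in the printed cultures. On the log2 scale its ratio to the other transcripts of the gene differed by -0.067 (standard error 0.20, adjusted p = 0.882 in limma). This difference was smaller than its error, and its sign changed with monolayer replicate 2 left out, where it was 0.096. With a pseudocount of 0.1 instead of 1 the difference was -0.23 (adjusted p = 0.645 in limma). Of the other transcripts of Pfkfb3, ENSRNOT00000068354.3 was listed at 0 in both monolayer cultures and at 0.240 and 0.285 TPM in 3D culture. The fourth, ENSRNOT00000025700.4, was above 0 in 3D replicate 2 alone, at 0.406 TPM.

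Pfkfb2 was spread over more transcripts. ENSRNOT00000050859.4 had 20.9 and 15.2 TPM in the monolayers against 32.3 and 30.3 TPM in the printed cultures, ENSRNOT00000037679.6 had 11.8 and 12.8 TPM and then 15.5 and 15.2 TPM, and ENSRNOT00000067445.3 had 4.63 and 2.44 TPM and then 7.21 and 6.08 TPM. All 3 had both 3D cultures above both monolayer cultures, which restates the difference of the gene they make up and is no separate result. The share of ENSRNOT00000037679.6 in the gene was 36.3% ± 7.16 (SD, n = 2) in the monolayers and 28.3% ± 0.707 (SD, n = 2) in the printed cultures, a difference smaller than the gap between the monolayer cultures. Its usage differed by -0.52 on the log2 scale (standard error 0.26, adjusted p = 0.442 in limma), and by -0.82 and -0.21 with monolayer replicate 1 and 2 left out. The usage differences of the other 2 were 0.30 (standard error 0.19, adjusted p = 0.518 in limma) and 0.18 (standard error 0.24, adjusted p = 0.755 in limma). With monolayer replicate 1 left out they were 0.46 and 0.43, and with monolayer replicate 2 left out 0.13 and -0.07. The remaining transcripts of Pfkfb2 were low, ENSRNOT00000005729.5 at 0.141 and 0.291 TPM and then 0.602 and 1.07 TPM, and ENSRNOT00000050354.3 at 0.304 TPM or less.

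The 2 transcripts of Pfkm differed in opposite directions. ENSRNOT00000078579.1 had 75.9 and 80.9 TPM in the monolayers against 62.2 and 63.2 TPM in the printed cultures. ENSRNOT00000088376.1 had 40.5 and 33.1 TPM in the monolayers against 41.6 and 45.4 TPM in the printed cultures. The share of the second went from 31.9% ± 4.075 (SD, n = 2) to 40.9% ± 1.25 (SD, n = 2), and the groups did not overlap. The log2 usage difference was 0.56 with a standard error of 0.19, and its adjusted p of 0.333 in limma did not pass the threshold. It was 0.37 with monolayer replicate 2 left out. The small difference of the gene as a whole is the sum of these opposite differences.

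**Figure D3:**
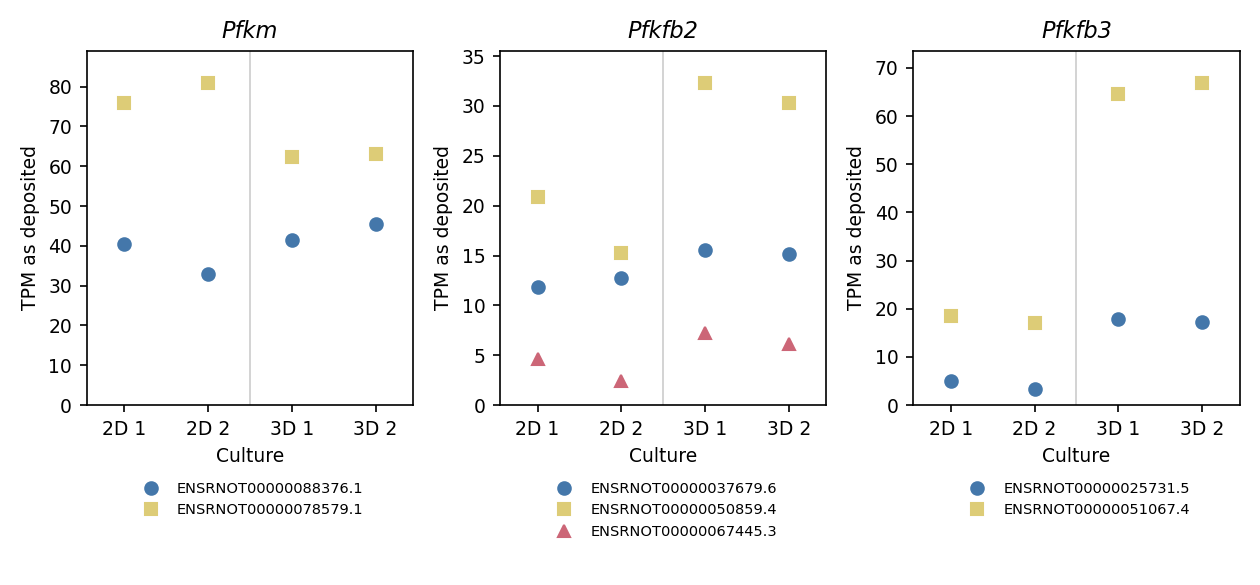
TPM as deposited of the transcripts of Pfkm, Pfkfb2 and Pfkfb3 with a mean of at least 1 TPM, 1 point for each culture. The 2 Pfkfb3 transcripts and the 3 Pfkfb2 transcripts lie higher in 3D culture, while the major transcript of Pfkm lies lower (62.2 and 63.2 against 75.9 and 80.9 TPM) and the minor one higher.

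Pfkfb1 and Pfkfb4 were each carried by 1 transcript. ENSRNOT00000090164.1 held 98.6% of Pfkfb4 TPM in monolayer and 98.9% in 3D culture on average, and ENSRNOT00000028039.4 of the same gene was at 0 in all 4 samples, while ENSRNOT00000091573.1 reached 0.189 TPM at most. For Pfkfb1, ENSRNOT00000000178.7 held 87.9% in monolayer and 100% in 3D culture, at levels of 1.04 TPM or less. Its other transcripts, ENSRNOT00000081239.1 and ENSRNOT00000033656.2, reached 0.125 and 0.0568 TPM in monolayer and were listed at 0 in 3D culture.

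Genes of the enzymes that act against these families were low or did not pass the test. Fbp1 and Fbp2, which encode fructose-bisphosphatases, had values from 0.145 to 1.103 TPM in the 4 cultures and fell below the filter. Tigar, which encodes an enzyme that breaks down fructose 2,6-bisphosphate, had 51.9 and 49.0 TPM in the monolayers against 47.4 and 44.6 TPM in the printed cultures, or -0.17 as log2 fold change (standard error 0.062, adjusted p = 0.0747 in limma). Set beside it, Pfkfb3 had 0.453 and 0.418 times the TPM of Tigar in monolayer and 1.74 and 1.90 times in 3D culture.

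The remaining glycolytic enzymes were taken as a list of 21 genes, of which 19 were in the files and 13 were tested. This list and those below were chosen with earlier results of these data known, so their counts are a description. In limma 7 of the 13 rose in 3D culture and none fell, where 18.5% of all genes tested rose and 19.5% fell, and the list's median log2 fold change was 0.33 where that of all genes tested was -0.003. The genes of this list that rose most were Aldoc (1.30, standard error 0.12, adjusted p = 0.0041 in limma), an aldolase that was at 1.79 and 1.71 TPM in the monolayers against 6.46 and 5.39 TPM in the printed cultures, Aldoa (0.69), the main aldolase, and the enolase Eno2 (0.64). Gpi and Tpi1, which act just before and shortly after the phosphofructokinase step, had log2 fold changes of 0.52 and 0.47. Hk1 was listed at 0 in every culture, Hk2 and Hk3 lay at 0.079 TPM or less, and Ldha was at 0.046 and 0.025 TPM in monolayer and listed at 0 in 3D culture. With 3D replicate 1 left out, 1 of the genes, Aldoc, was called, where 1.14% of all genes tested were.

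Hif1a, the gene of an oxygen-regulated factor that is controlled mainly at the protein level, had 14.5 and 12.0 TPM in the monolayers against 13.6 and 13.9 TPM in the printed cultures, with overlapping groups (log2 fold change 0.015, standard error 0.085, adjusted p = 0.899 in limma). Epas1, which encodes HIF-2 alpha, rose from 18.2 TPM in both monolayer cultures to 28.4 and 27.6 TPM (log2 fold change 0.55, standard error 0.064, adjusted p = 0.0053 in limma), and its call was lost with 3D replicate 1 left out. Of a list of 24 known targets of these factors without the PFK and PFKFB genes, 19 were tested, 7 rose and 1, Ndrg1, fell, with a median log2 fold change of 0.22. Of all genes tested, 38.0% were called, 18.5% as rises and 19.5% as falls. The largest rises were those of Bhlhe40, P4ha1 and Aldoc. Bhlhe40, a transcriptional repressor, rose by 1.86 (adjusted p = 0.0014 in limma) and P4ha1, a collagen prolyl hydroxylase, by 1.71 (adjusted p = 0.0035 in limma). The list shares 3 genes with that of glycolytic enzymes, Aldoc, Pgk1 and Ldha. The glucose transporter Slc2a1 of this list did not pass the test (-0.18, adjusted p = 0.0696 in limma), and Slc2a3 was listed at 0 in all cultures. With 3D replicate 1 left out, 3 genes rose and none fell.

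A list of 12 genes known to respond to glucose through the carbohydrate response factor had 8 tested genes, of which 7 rose and none fell, with a median log2 fold change of 0.59. Of all genes tested, 18.5% rose and 19.5% fell. Gpd1, the cytosolic glycerol 3-phosphate dehydrogenase (1.17, adjusted p = 0.0035 in limma), Txnip, an inhibitor of thioredoxin (1.14, adjusted p = 0.0035), and Klf10, a transcription factor (0.81, adjusted p = 0.0046), had the largest changes. With 3D replicate 1 left out, 2 of them, Gpd1 and Txnip, were called. Fasn, the fatty acid synthase, was at 0.047 on the same scale (adjusted p = 0.674 in limma). This list and that of glycolytic enzymes share 2 genes.

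Genes of kinases that act on PFKFB enzymes were taken as a list of 12, of which 11 were in the files. Of 10 tested genes for AMPK and PKA subunits, AKT and MK2, 1 rose and 1 fell, where 38.0% of all genes tested were called, and the median log2 fold change was 0.14. Prkab1, an AMPK beta subunit, rose by 0.21 (adjusted p = 0.0359 in limma), and Prkag2, an AMPK gamma subunit, fell by 0.36 (adjusted p = 0.0172 in limma). The call of Prkab1 was lost with any 1 culture left out, and that of Prkag2 with either 3D culture left out.

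**Figure D4:**
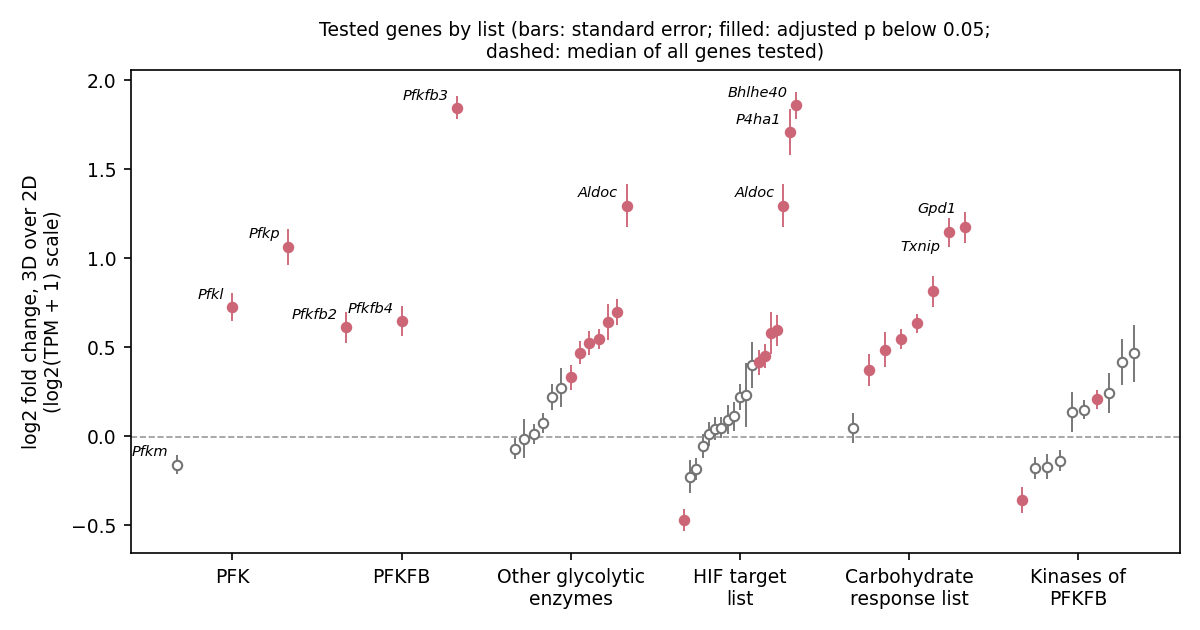
Log2 fold change of 3D over 2D culture on the log2(TPM + 1) scale for the tested genes of both families and of 4 lists, with bars for the standard error from limma; filled points had an adjusted p below 0.05 and the dashed line is the median of all genes tested, -0.003. Pfkfb3 (1.84) lies near the highest genes of the HIF target list, Bhlhe40 (1.86) and P4ha1 (1.71). Of the 19 tested genes of that list 11 were not called, and the list's median was 0.22. Pfkm (-0.16) is the tested family member below 0.

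The profiles most like those of Pfkfb3 and Pfkp were looked for among 7612 other genes with a mean of at least 10 TPM, by the Euclidean distance of centred log2(TPM + 1) values over the 4 samples. Nearest to Pfkfb3 were Bhlhe40 (distance 0.11), AABR07054983.1 (0.19) and Fn1, the gene of fibronectin (0.25). Bhlhe40 was close to Pfkfb3 in level too, with 22.9 and 20.2 TPM in the monolayers against 86.4 and 79.7 TPM in the printed cultures. Nearest to Pfkp were Trim68 (0.058), AABR07004812.2 (0.10) and AABR07007997.1 (0.12). With 4 samples in 2 groups, this distance largely follows the same difference between culture forms that the members were chosen on. The log2 fold changes of Bhlhe40 and Pfkfb3 were 1.86 and 1.84, and those of Trim68 and Pfkp 1.03 and 1.06. Nearness is therefore a description, and shared regulation was not tested.

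Beta-cell markers were abundant in both groups. All 12 beta-cell markers passed the filter, and they summed to between 148068 and 171047 TPM, most of it from Ins1. Of the 12, Slc2a2 (0.39) and Pcsk2 (0.58) rose on the log2 scale and Ins2 (-0.58) fell in limma. In the same fit 38.0% of all genes tested were called. Markers of acinar cells, fibroblasts, endothelial cells and macrophages summed to 2.35 TPM or less per list and culture. Most of the fibroblast sum was Pdgfra (1.87 to 2.32 TPM), and most of the endothelial sum was Kdr (0.97 to 1.48 TPM). Both genes were higher in both 3D cultures, and neither was called. Prss1, Dcn, Cdh5 and Ptprc were at 0 in all 4 samples, while Amy2a3, Col1a2 and Pecam1 were not listed. Among 4 hormone genes of other islet cells, Gcg rose from 41.9 and 73.8 TPM to 124 and 155 TPM (adjusted p = 0.0217 in limma), while Sst and Ppy stayed below 0.30 TPM and Ghrl was at 0. The part of this rise in the differences of the PFK and PFKFB genes was not tested.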

How the data were processed

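Messenger RNA of 2 monolayer and 2 bioprinted INS-1 cultures was sequenced as stranded single-end libraries. The methods of the study name FastQC 0.11.8 for checking reads and Salmon 1.2 for quantification per transcript. As reference they name rn4 plus human insulin. The authors deposited the output as TPM with decimal commas, entered as another unit for that reason. The annotation release behind the transcript identifiers is not given in the sources used here, and whether they belong to rn4 was not checked. The deposited TPM sum to 1000000 in each sample, no negative value occurs, and no 2 samples share a value above 0 on any transcript. The count-based steps of the methods need counts that TPM do not carry.

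Transcript values were added up for each symbol. Genes averaging 1 TPM or more gave scaling factors from 0.960 to 1.02, by a trimmed mean of log ratios without weights (trimming 30% of log ratios and 5% of mean levels from either end). Scaled values were tested as log2(TPM + 1) with limma 3.58.1 (empirical Bayes with a trend) in R 4.3.3, with Benjamini-Hochberg adjustment over all genes. TPM in the text are as deposited, and fold changes are from scaled values. Transcript usage was tested as log2((TPM of the transcript + 1)/(TPM of the gene's other transcripts + 1)) over all transcripts with a mean TPM of at least 1 in genes with at least 2 of them. Both tests were run on simulated data with independent noise for each gene or transcript, and the outcome is not reported here. Where 1 culture is left out, the lone culture is assumed to vary like the others.

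The members, the lists and the alternatives were chosen with earlier results of these data known. Named genes are the members and their transcripts, genes fixed by name (of which some results are not reported here), the 3 called genes of each list with the largest absolute change, and the 3 nearest profiles of Pfkfb3 and Pfkp; Gpi, Tpi1, Hk1, Hk2, Hk3, Ldha, Slc2a1, Slc2a3, Ndrg1, Fasn and the markers were named after their values were seen. Symbols were matched through RefSeq names of GRCr8, used for names and promoter sequences.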

Additional observations from a re-analysis of the deposited data

How the results depend on the processing

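The 6 members tested kept the sign of their log2 fold change under each setting tried: no scaling or median-of-ratios scaling, another expression filter, a pseudocount of 0.1 or 0.5, empirical Bayes without trend, the replicate block and each culture left out. The settings other than left-out cultures called 5 members each. With a culture left out, 2 to 5 members were called, and 136 to 4515 of all genes, against 4541 with all cultures; without 3D replicate 1 and without 3D replicate 2 the counts were 136 and 1037. At an adjusted p below 0.01, 1418 genes were called. The cause was not tested. The left-out cultures gave 1 to 7 rises among the other glycolytic enzymes, 3 to 7 rises and 0 to 1 falls among the HIF targets, and 2 to 6 rises among the carbohydrate response genes.

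Among the PFKFB kinases the number of rises was 2 without scaling, 2 with a mean TPM of at least 5, 3 with the replicate block, 0 with empirical Bayes without trend, 0 at an adjusted p below 0.01 and 0 to 2 with a culture left out, and the number of falls was 0 at an adjusted p below 0.01 and 0 to 2 with a culture left out.

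The usage test called 8 transcripts in all. It called 0 without a filter, 0 with a mean TPM of at least 5, 19 with a pseudocount of 0.1, 0 with the replicate block, 0 at an adjusted p below 0.01 and 0 to 1 with a culture left out. Signs turned with monolayer replicate 2 left out for Hif1a (-0.081), ENSRNOT00000067445.3 (-0.074), ENSRNOT00000025731.5 (-0.142) and ENSRNOT00000051067.4 (0.096), and with 3D replicate 1 left out for ENSRNOT00000025731.5 (-0.032). The other ends of these ranges, with monolayer replicate 1 left out, were 0.106, 0.426, 0.185 and -0.231 in the same order.

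No shared effect of the replicate number was seen: after subtracting group means, cultures with the same number correlated at -0.006 over 11960 genes, which are not independent. With 2 cultures a group, this cannot show whether cultures with the same number were prepared together. The fit with the replicate block called 4814 genes.

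TPM keep no depth, so precision is that of 2 cultures a group, and genes averaging under 1 TPM, such as Pfkfb1, were not tested.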
